A study of Mus musculus with 10 samples.

Results

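The 10 genes described here mark mast cells: the proteases Mcpt1, Mcpt2, Mcpt4, Cma1, Cpa3 and Tpsb2, the histamine-forming enzyme Hdc, and the receptors Kit, Fcer1a and Ms4a2. They were chosen by gene symbol from the platform annotation and are 10 of 18193 genes that had a probe set with a single symbol. Each of 10 male C57BL/6JJmsSlc mice gave RNA of its terminal ileum, which was read on 1 Affymetrix array. The stressed group held 5 mice that had been exposed, as intruders, to older resident ICR males in short daily fights over 10 days, and the control group held 5 unstressed mice. Contact lasted 5 min on the first day, counted from the first bite, and 0.5 min less each day, down to 0.5 min on day 10. The mice of both groups were 7 weeks old, lived in single cages during a week of habituation and received AIN-93G diet, and food was withheld for 3 h before sampling. The question is how subchronic and mild social defeat stress bears on transcripts of the ileum.

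Mast cells store proteases in granules, bound to the proteoglycan serglycin, and release them when antigen cross-links IgE on the high-affinity receptor FcεRI. In the mouse gut, mucosal mast cells of the epithelium and lamina propria make the chymotrypsin-like proteases encoded by Mcpt1 and Mcpt2, and the Mcpt1 product is known for opening epithelial junctions during worm expulsion. Connective tissue mast cells, found in the submucosa and in other organs, make Mcpt4, Cma1, the tryptase Tpsb2 and the carboxypeptidase Cpa3. Kit, the receptor for stem cell factor, is needed for mast cell survival and is also made by the pacemaker cells of gut muscle, the interstitial cells of Cajal.

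The promoters of Mcpt1, Mcpt4 and Cpa3 are shown because these genes differed in how far stressed and control mice were apart. Each runs from 250 bases before to 50 bases after the start of the RefSeq gene on build GRCm38.p6, written 5′ to 3′ on the gene's own strand, and capitals mark TGATAA or AGATAA, the letters bound by GATA factors.
Mcpt1 promoter (chr14:56017714-56018013, plus strand): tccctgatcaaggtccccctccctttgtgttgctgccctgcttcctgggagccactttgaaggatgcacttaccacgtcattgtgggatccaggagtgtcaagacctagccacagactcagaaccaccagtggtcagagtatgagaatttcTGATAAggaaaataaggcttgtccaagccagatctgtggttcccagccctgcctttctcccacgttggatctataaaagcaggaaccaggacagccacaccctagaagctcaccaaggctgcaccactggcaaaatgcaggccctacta
Mcpt4 promoter (chr14:56062261-56062560, minus strand): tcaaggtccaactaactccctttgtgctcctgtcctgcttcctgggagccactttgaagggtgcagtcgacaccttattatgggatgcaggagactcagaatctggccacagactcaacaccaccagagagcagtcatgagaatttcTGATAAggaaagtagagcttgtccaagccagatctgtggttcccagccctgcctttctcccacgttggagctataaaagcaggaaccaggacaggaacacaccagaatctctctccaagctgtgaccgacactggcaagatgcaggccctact
Cpa3 promoter (chr3:20242132-20242431, minus strand): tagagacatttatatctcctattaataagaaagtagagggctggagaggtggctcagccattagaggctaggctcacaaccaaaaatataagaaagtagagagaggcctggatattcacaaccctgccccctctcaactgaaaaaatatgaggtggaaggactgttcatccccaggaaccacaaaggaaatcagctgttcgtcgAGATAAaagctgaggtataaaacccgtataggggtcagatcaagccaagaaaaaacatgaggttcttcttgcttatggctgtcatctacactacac

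The Mcpt1 and Mcpt4 promoters were nearly the same sequence, with 254 identical bases among 288 aligned ones (88.2%). Gaps were left out of this count, which raises the percentage. Counted in the same way, Mcpt1 and Cpa3 had 104 identical bases among only 132 aligned ones (78.8%). The Mcpt1 and Mcpt4 windows each held 1 TGATAA, at base 152 of the Mcpt1 window and base 148 of the Mcpt4 window, and the Cpa3 window held 1 AGATAA at base 205. On either strand, TGATAA was found in 9.1% and AGATAA in 11.2% of 32851 promoters of the same length. TGATAA was searched after these sequences had been read. The E box CATGTG, which the mast cell factor MITF binds, and the AP-1 letters TGACTCA were in none of the 3 windows, against 14.2% and 5.2% of all promoters. The Cma1 window held none of the 4 motifs. Of the 10 members, 8 had a window in the table. A match is a description of the letters and does not show a bound factor.

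The arrays were checked against tissue markers first. Fabp6, the bile acid binding protein of ileal enterocytes, was at 13.95 to 14.10 in stressed mice and at 13.88 to 13.93 in control mice 2 to 5 on the log2 scale, but at 7.88 in control mouse 1. Car1, a carbonic anhydrase of the large intestine, was at 14.17 in control mouse 1 and 13.32 in stressed mouse 4, against 4.95 to 7.41 in the other arrays. Ms4a1 (CD20), a B cell marker, was at 6.81 in control mouse 5 and at 3.95 to 4.61 elsewhere. The mean of 12 ileal enterocyte genes was 10.82 to 11.36 in stressed mice, against 8.02 in control mouse 1 and 10.63 to 10.85 in the other controls, so that array went against its tissue label. The members are therefore compared with all 10 arrays and without control mouse 1, and the main ones also without control mouse 5 and stressed mouse 4. The values are RMA log2 values, whose lowest 40 percent of probe sets lay below a mean of 4.15, and 5 of the 10 members (Mcpt4, Cma1, Hdc, Fcer1a and Ms4a2) had means below that floor. The files carry no detection calls, so a low value cannot be called absent.

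Transcripts of the mucosal proteases Mcpt1 and Mcpt2 and of Cpa3 were lower in every stressed mouse than in any control mouse, while Mcpt4, Cma1, Tpsb2, Hdc, Kit and Ms4a2 overlapped between the groups. Fcer1a also separated the groups, by a narrow margin at a very low level. With all 10 arrays, 4 of the 10 members (40%) had all stressed values below all control values, against 1.15% of the 18193 genes tested, and without control mouse 1 the count was 4, against 2.81%. This was not particular to mast cell genes. Of 8 measured T cell genes, 3 were also lower without overlap with all 10 arrays and 4 without control mouse 1. Of 7 measured plasma cell genes the counts were 0 and 6. In limma with Benjamini-Hochberg adjustment, 0 members passed an adjusted p under 0.05 with all 10 arrays, where 0% of all genes passed, and the exact permutation test also called 0. An unadjusted p under 0.05 was reached by 4 members, all lower, against 4.47% of genes lower and 7.72% (1405 genes) in either direction. When control mouse 1 was left out, limma called 1 member, Cpa3, against 0.489% of genes, and the same 4 members had an unadjusted p under 0.05, against 7.32% of genes lower and 16.2% in either direction. The median difference over the 10 members was -0.19 in both comparisons, beside -0.01 over all genes with 10 arrays. In this bulk tissue, fewer mast cells, less RNA per mast cell and a different share of other cells cannot be told apart.

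**Figure D1:**
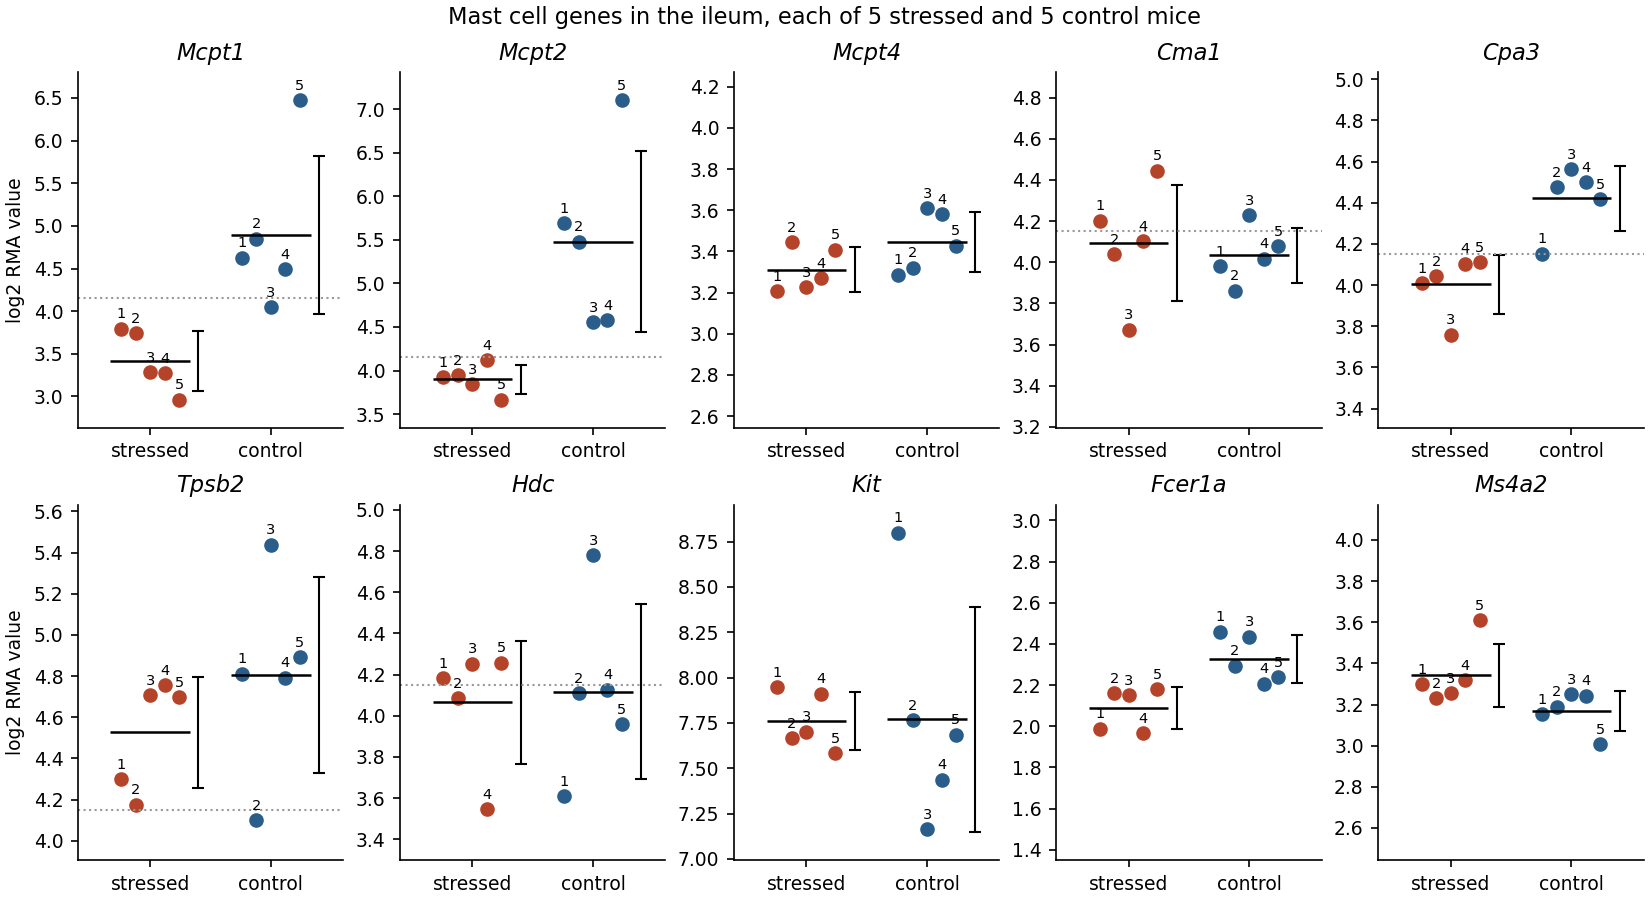
Log2 RMA value (vertical axis, scaled per gene) of the 10 mast cell genes in stressed (left) and control (right) mice; each point is a mouse with its number, the horizontal line is the mean of 5, the bar beside it is the SD, and the dotted line is the floor of 4.15. Mcpt1, Mcpt2, Cpa3 and Fcer1a do not overlap between the groups, and control mouse 5 is highest for Mcpt1 (6.47) and Mcpt2 (7.10).

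Mcpt1, the first of the mucosal chymases, was at 3.80, 3.74, 3.28, 3.27 and 2.96 in stressed mice 1 to 5, against 4.63, 4.85, 4.05, 4.49 and 6.47 in control mice 1 to 5. All 5 stressed mice lay below all 5 controls, with a gap of 0.25, and control mouse 5 stood far above the others. The stressed mean was 3.41 ± 0.35 (SD, n = 5) and the control mean 4.90 ± 0.93 (SD, n = 5). The difference was -1.49 ± 0.37 (SE), or 2.80-fold lower with a 95% interval of 1.59 to 4.95, and its limma adjusted p was 0.382. Only 14 of the 18193 genes had a larger decrease, since Mcpt1 ranked 15 when genes were ordered from the most negative difference. Without control mouse 1 the difference was -1.55 ± 0.39 (SE), with a limma adjusted p of 0.0948.

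Mcpt2 lies beside Mcpt1 on chromosome 14 and encodes its close relative. It was at 3.93, 3.95, 3.84, 4.12 and 3.66 in stressed mice 1 to 5, against 5.69, 5.48, 4.55, 4.58 and 7.10 in control mice 1 to 5. The stressed mice were tightly grouped and the controls were spread over more than 2 log2 units, with a gap of 0.44 between the groups. The means were 3.90 ± 0.16 (SD, n = 5) in stressed and 5.48 ± 1.04 (SD, n = 5) in control mice. The difference was -1.58 ± 0.40 (SE), or 2.99-fold lower with a 95% interval of 1.64 to 5.48, and its limma adjusted p was 0.382. Without control mouse 1 it was -1.53 ± 0.41 (SE), with a limma adjusted p of 0.112.

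Control mouse 5 set the upper end of both chymases, and control mice 3 and 4 the lower end of the control range of Mcpt2. Without control mouse 5 the difference of Mcpt1 was -1.09 ± 0.20 (SE, limma adjusted p = 0.304) and that of Mcpt2 -1.18 ± 0.23 (SE, limma adjusted p = 0.306). Without control mice 1 and 5 they were -1.05 ± 0.21 (SE) and -0.97 ± 0.19 (SE), with a limma adjusted p of 0.0604 for either gene. Leaving out stressed mouse 4 as well gave -1.02 ± 0.23 (SE) for Mcpt1 and -1.03 ± 0.21 (SE) for Mcpt2, with limma adjusted p of 0.156 and 0.123. All stressed values of both genes lay below the floor of 4.15. Probe sequences were not examined, so whether the probe sets of Mcpt1, Mcpt2 and related chymases also bind each other's transcripts was not tested, and their differences may not be separate measurements.

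**Figure D2:**
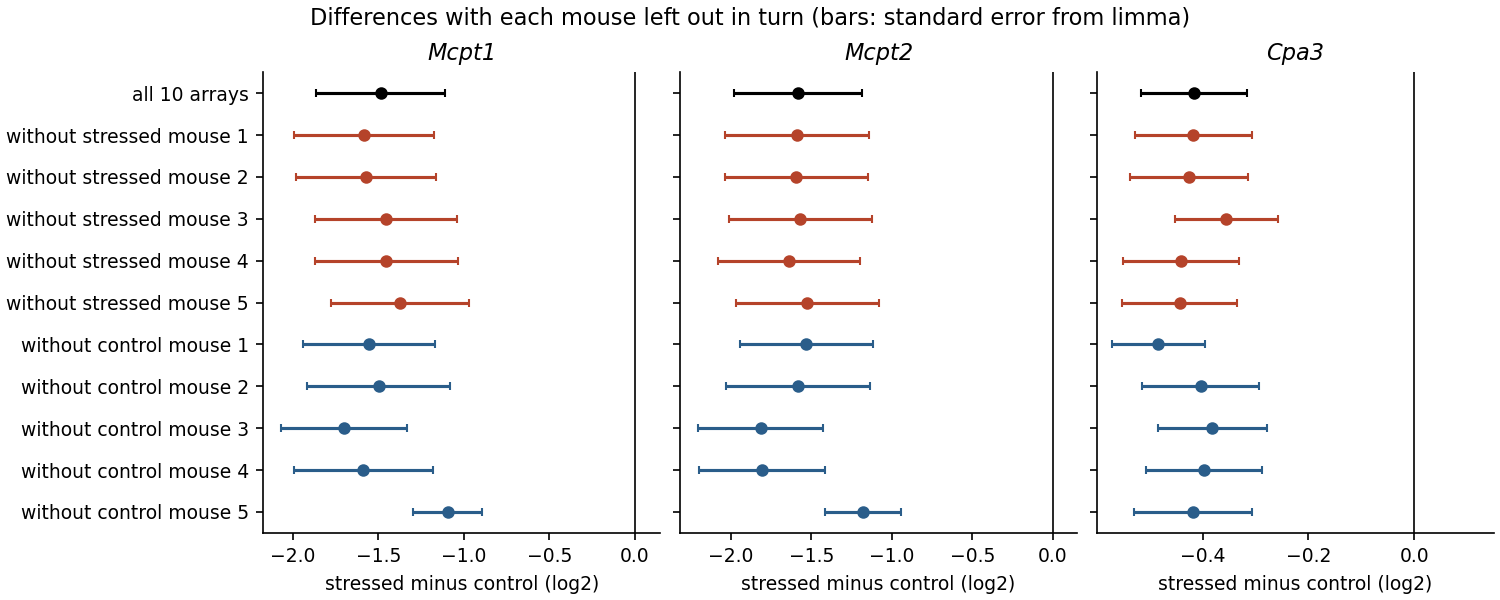
Difference between stressed and control mice (horizontal axis, log2, bars are the standard error from limma) for Mcpt1, Mcpt2 and Cpa3, with all 10 arrays and with each mouse left out in turn. Every value is below 0, and the Mcpt1 and Mcpt2 differences are smallest without control mouse 5, at -1.09 and -1.18.

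Cpa3 encodes the mast cell carboxypeptidase, which trims peptides after the chymases have cut them. It was at 4.01, 4.04, 3.76, 4.10 and 4.11 in stressed mice 1 to 5, against 4.15, 4.47, 4.56, 4.50 and 4.42 in control mice 1 to 5. The groups did not overlap, but control mouse 1 lay only 0.04 above the highest stressed mouse, and without it the gap was 0.31. The difference was -0.42 ± 0.10 (SE, limma adjusted p = 0.382) with all 10 arrays. Cpa3 fell by 0.48 ± 0.09 (SE, limma adjusted p = 0.0410), or 1.40-fold, when control mouse 1 was left out. All 5 stressed values of Cpa3 also lay below the floor of 4.15, so the fold is between values near the low end of the arrays. This call did not hold when any further mouse was left out, where the limma adjusted p was 0.0524 to 0.0988 and the difference -0.51 to -0.42. Unlike the chymases, Cpa3 was not highest in control mouse 5.

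The chymases Mcpt4 and Cma1 come from the same gene cluster but overlapped between the groups. Mcpt4 was at 3.21, 3.45, 3.23, 3.27 and 3.41 in stressed mice 1 to 5, against 3.29, 3.32, 3.61, 3.58 and 3.43 in control mice 1 to 5, with a difference of -0.13 ± 0.09 (SE) and a 95% interval of -0.33 to 0.06. Cma1 was at 4.20, 4.04, 3.67, 4.10 and 4.45 in stressed mice, against 3.98, 3.86, 4.23, 4.02 and 4.08 in control mice, with a difference of 0.06 ± 0.13 (SE) and an interval of -0.23 to 0.35. Mcpt4 lay below the floor of 4.15 in all 10 mice and Cma1 in 3 stressed and 4 control mice. Whether a decrease as large as that of Mcpt1 could have been seen at such levels was not tested. The limma adjusted p was 0.776 for Mcpt4 and 0.933 for Cma1.

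Tpsb2, the mast cell tryptase, was at 4.30, 4.18, 4.71, 4.76 and 4.70 in stressed mice 1 to 5, against 4.81, 4.10, 5.44, 4.79 and 4.89 in control mice 1 to 5. Of the 5 controls, 4 lay above all stressed mice, and control mouse 2 lay below them. Its difference was -0.28 ± 0.21 (SE, limma adjusted p = 0.793), with an interval of -0.74 to 0.19. Without control mouse 2 the groups did not overlap and the difference was -0.46 ± 0.17 (SE, limma adjusted p = 0.562), and without control mouse 3 it was -0.12 ± 0.19 (SE). With control mouse 1 also left out, these differences were -0.51 ± 0.18 (SE, limma adjusted p = 0.170) and -0.07 ± 0.19 (SE). A second probe set of Tpsb2, at 2.13 to 2.74 in stressed and 2.22 to 2.58 in control mice, differed by 0.08 ± 0.12 (SE), in the other direction.

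Hdc, which makes histamine from histidine, was at 4.18, 4.08, 4.25, 3.55 and 4.26 in stressed mice 1 to 5, against 3.61, 4.11, 4.78, 4.13 and 3.96 in control mice 1 to 5. The lowest values were those of stressed mouse 4 and control mouse 1, the arrays with high Car1. The difference was -0.05 ± 0.20 (SE, limma adjusted p = 0.964), and -0.18 ± 0.18 (SE) without control mouse 1. Both Hdc probe sets carry a suffix that marks possible matches to more than 1 gene.

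Among the receptors, Fcer1a, the IgE-binding alpha chain of FcεRI, was at 1.99, 2.16, 2.15, 1.97 and 2.18 in stressed mice 1 to 5, against 2.46, 2.29, 2.43, 2.21 and 2.24 in control mice 1 to 5. The groups did not overlap, but the gap was 0.03 and every value was far below the floor. The difference was -0.24 ± 0.08 (SE, limma adjusted p = 0.536), and -0.20 ± 0.08 (SE, limma adjusted p = 0.253) without control mouse 1. Ms4a2, the beta chain that amplifies the signal of FcεRI, was at 3.23 to 3.61 (median 3.30) in stressed and 3.01 to 3.25 (median 3.19) in control mice, with a difference of 0.17 ± 0.09 (SE, limma adjusted p = 0.698). Its second probe set, at 2.23 to 2.40 in stressed and 2.19 to 2.82 in control mice, differed by -0.25 ± 0.11 (SE), so the direction of Ms4a2 depended on the probe set.

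Kit was at 7.95, 7.67, 7.70, 7.91 and 7.58 in stressed mice 1 to 5, against 8.80, 7.76, 7.16, 7.44 and 7.69 in control mice 1 to 5. Control mouse 1 was the highest array, and the difference was -0.01 ± 0.25 (SE, limma adjusted p = 0.996) with it and 0.25 ± 0.13 (SE, limma adjusted p = 0.358) without it. Its 95% interval without that mouse ran from -0.03 to 0.53. The second probe set of Kit gave differences of -0.01 ± 0.14 (SE) and 0.13 ± 0.08 (SE). Markers of interstitial cells of Cajal, which also make Kit, were higher in 6 of 7 measured genes with and without control mouse 1. Over all genes 53.6% were lower with all 10 arrays and 50.2% without control mouse 1. In limma 0 genes of this list were called, and 0 had an unadjusted p under 0.05 with all 10 arrays. Without control mouse 1, 2 of this list had one, both higher, against 16.2% of all genes in either direction. The mean of that list was 7.03 to 7.33 in stressed and 6.94 to 7.38 in control mice, and its part in the Kit values was not tested. Kitl, the stem cell factor that binds Kit, was at 10.15 ± 0.15 (SD, n = 5) in stressed and 10.26 ± 0.30 (SD, n = 5) in control mice, with a limma adjusted p of 0.879.

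**Figure D3:**
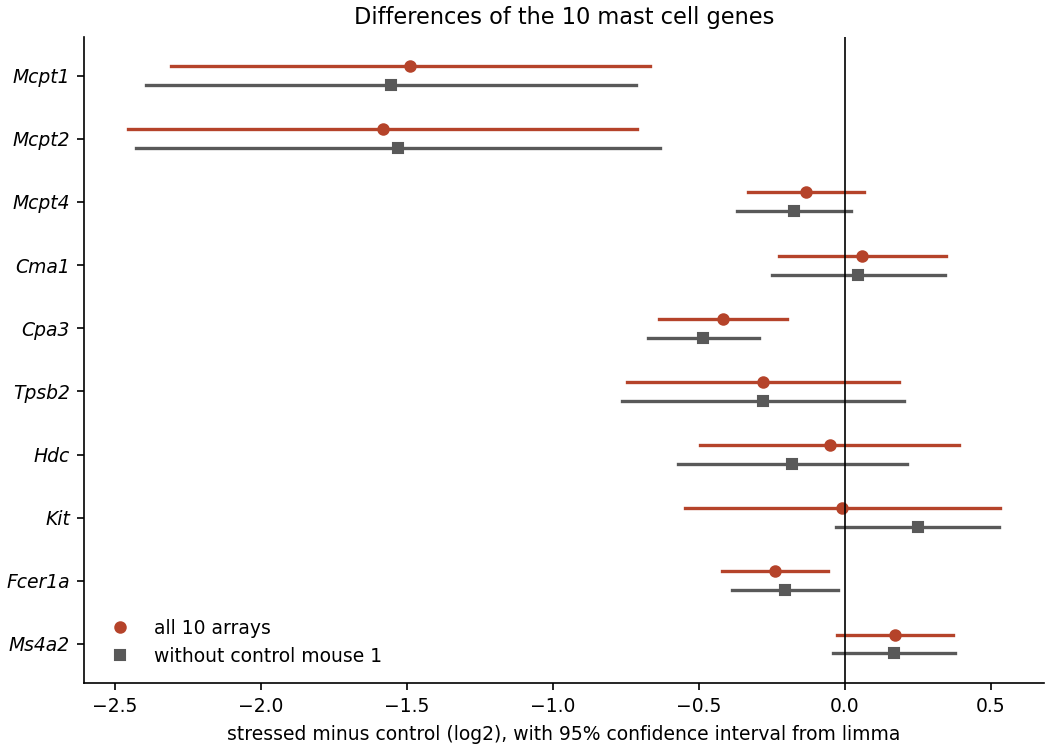
Difference between stressed and control mice (horizontal axis, log2) for each mast cell gene with its 95% confidence interval from limma, for all 10 arrays (circles) and without control mouse 1 (squares). The intervals of Mcpt1, Mcpt2, Cpa3 and Fcer1a lie below 0 in both comparisons, and those of the other 6 genes include 0.

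Genes whose groups do not overlap have, by construction, the smallest 2-sided p that an exact permutation test over 252 assignments of 10 arrays allows. For Mcpt1, Mcpt2, Cpa3 and Fcer1a it was 0.00794, and 0.381 after adjustment over all genes, so it adds nothing to the lack of overlap, which 1.15% of genes showed with lower and 0.934% with higher stressed values. Ms4a2 had an exact permutation p of 0.0317 in the other direction.

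Other genes of mast cells were set beside the members. Of 18 measured genes of this list, 11 were lower and 7 higher with all 10 arrays, against 53.6% lower over all genes. In limma, 5 had an unadjusted p under 0.05 with a lower level, and 0 were called. Gzmb, described below as a granzyme of cytotoxic lymphocytes, was among these 5, so the count is not of mast cells alone. Without control mouse 1, limma gave 5 lower and 2 higher at an unadjusted p under 0.05, and called 1. There 1 gene lay lower without overlap, Srgn, against 2.81% of all genes, and 1 higher, Slc18a2, against 3.55% of all genes. The median difference of the list was -0.11, beside -0.01 over all genes. Srgn, the serglycin core protein that holds the proteases in the granule and is also made by lymphocytes, was at 8.97, 9.07, 9.15, 8.99 and 8.97 in stressed mice 1 to 5, against 9.30, 10.22, 9.80, 9.56 and 9.65 in control mice 1 to 5. The groups did not overlap, and the difference was -0.68 ± 0.14 (SE, limma adjusted p = 0.316). Srgn fell by 0.78 ± 0.12 (SE, limma adjusted p = 0.0288) when control mouse 1 was left out. Fcer1g, the signalling chain shared by FcεRI and other Fc receptors, differed by -0.39 ± 0.14 (SE, limma adjusted p = 0.559), and Alox5, which starts leukotriene synthesis, by -0.30 ± 0.11 (SE, limma adjusted p = 0.536). The tryptase Tpsab1 differed by -0.16 ± 0.18 (SE).

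Of 14 measured genes of receptor signalling, 10 were lower with all 10 arrays, against 53.6% of all genes. In limma 0 were called, and 3 had an unadjusted p under 0.05, 2 of them lower. Csf2rb, the beta chain shared by the receptors for IL-3, IL-5 and GM-CSF, was at 5.48 ± 0.16 (SD, n = 5) in stressed and 6.04 ± 0.27 (SD, n = 5) in control mice, without overlap (limma adjusted p = 0.366). Btk, a kinase downstream of FcεRI and of the B cell receptor, was at 5.12 ± 0.02 (SD, n = 5) in stressed and 5.38 ± 0.13 (SD, n = 5) in control mice, also without overlap (limma adjusted p = 0.459). Syk, a kinase that FcεRI recruits, differed by 0.19 ± 0.08 (SE, limma adjusted p = 0.635), in the other direction.

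Of 23 measured genes of mast cell growth and recruitment, 16 were lower with all 10 arrays, against 53.6% of all genes. In limma 0 were called, and 5 had an unadjusted p under 0.05, all lower. Itga4 and Itgae encode integrin chains that pair with the beta 7 chain in precursors homing to the gut and in cells held at the epithelium. Itga4 differed by -0.42 ± 0.12 (SE, limma adjusted p = 0.419) and Itgae by -0.37 ± 0.13 (SE, limma adjusted p = 0.546). T cells carry these chains too. Il18, an epithelial cytokine, differed by -0.84 ± 0.29 (SE, limma adjusted p = 0.536). Among 11 measured genes of histamine and leukotriene handling, 6 were lower and 5 higher, near the 53.6% lower over all genes. In limma 0 were called, and 0 had an unadjusted p under 0.05. There Aoc1, the diamine oxidase that breaks down histamine, was at 11.59 ± 0.12 (SD, n = 5) in stressed and 11.14 ± 0.60 (SD, n = 5) in control mice (limma adjusted p = 0.701).

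Markers of other cells moved with the proteases in part. With all 10 arrays, 53.6% of all genes were lower. Of 8 measured T cell genes 7 were lower with all 10 arrays, 5 of them at an unadjusted p under 0.05, and the list mean was 4.84 to 4.94 in stressed and 4.98 to 5.47 in control mice, without overlap. All 9 measured B cell genes were lower, with a list mean of 3.83 to 4.09 in stressed and 3.77 to 5.14 in control mice, and control mouse 5, the mouse with the highest Mcpt1 and Mcpt2, held the top of that range. Of 7 measured plasma cell genes 6 were lower, with a list mean of 9.12 to 9.41 in stressed mice, against 8.60 in control mouse 1 and 9.55 to 10.09 in the other controls. Limma called 0 genes of the T and B cell lists in either comparison, and 0 plasma cell genes with all 10 arrays and 2 without control mouse 1. Lower without overlap were 3 T cell, 0 B cell and 0 plasma cell genes with all 10 arrays. Without control mouse 1 these counts were 4, 1 and 6, against 2.81% of all genes (1.15% with all 10 arrays). The 5 measured basophil genes had a list mean of 3.95 to 4.16 in stressed and 4.01 to 4.17 in control mice, and the 6 measured eosinophil genes one of 3.36 to 3.49 in stressed and 3.46 to 3.66 in control mice. Means below the floor were held by 3 basophil, 4 eosinophil and 2 T cell genes. Smooth muscle genes had a list mean of 9.30 to 10.17 in stressed and 9.44 to 10.53 in control mice. In the other direction, all 12 measured ileal enterocyte genes were higher with all 10 arrays, where limma called 0. Without control mouse 1, 10 were higher and 2 lower, 4 were higher without overlap, against 3.55% of all genes, and limma called 2. The part of these cells in the protease differences was not tested.

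**Figure D4:**
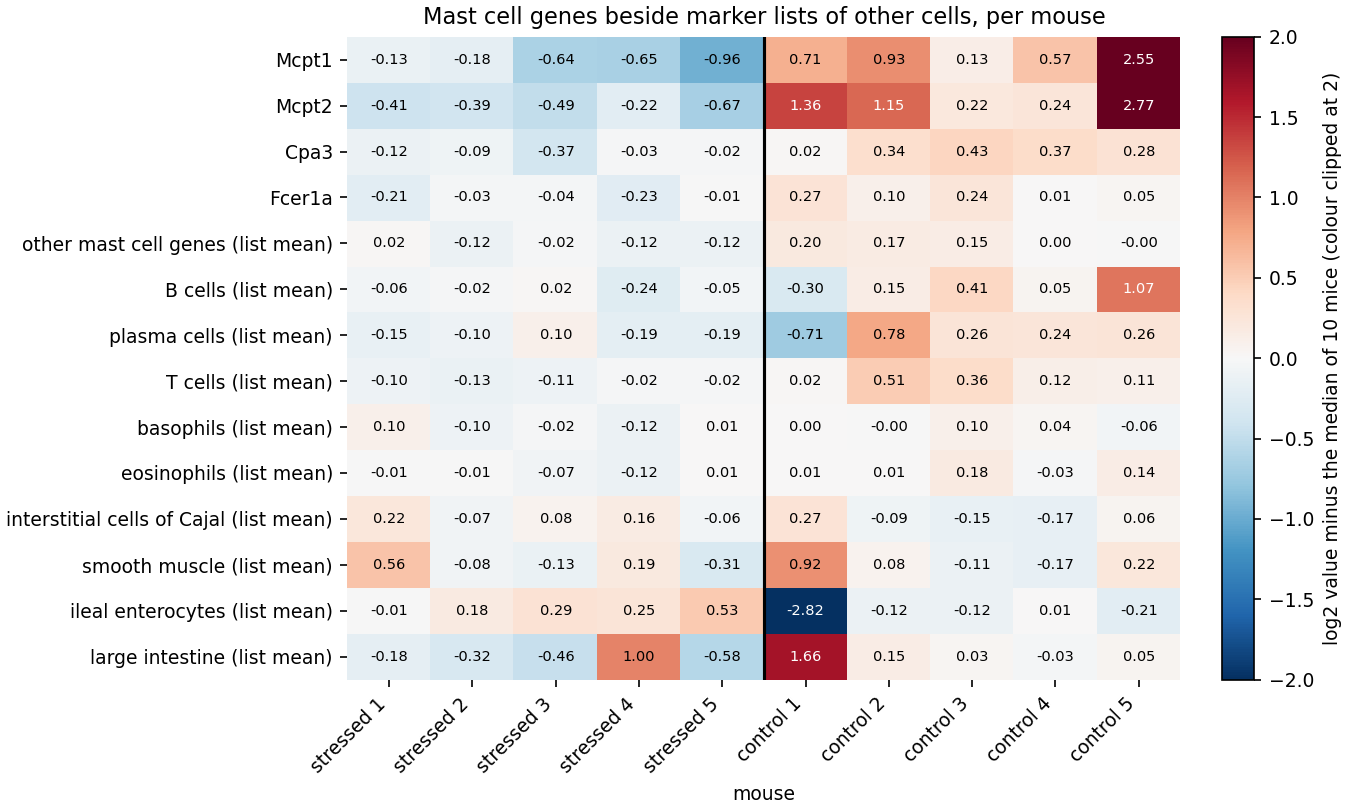
Log2 value minus the median of the 10 mice for Mcpt1, Mcpt2, Cpa3, Fcer1a and the mean of each marker list (rows) in each mouse (columns, stressed left and control right), with the colour clipped at 2. Control mouse 5 is high for Mcpt1, Mcpt2 and B cell genes, and control mouse 1 is low for ileal enterocyte genes and high for large intestine genes.

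Mcpt1 and Mcpt2 belong to a cluster of serine protease genes on chromosome 14 that runs, in order, from Cma1 through Cma2, Mcpt1, Mcpt2, Mcpt9, Mcpt4, Mcpt8 and Ctsg to granzymes that end with Gzmb. Of its 15 protein-coding genes 13 had a probe set of their own, and Mcpt9 shared its probe set with Cma2 and was left out. With all 10 arrays, 10 of the 13 were lower, against 53.6% of all genes, but 10 of the 13 had means below the floor of 4.15, so most of these directions rest on very low values. Mcpt1 and Mcpt2 were the 2 without overlap between the groups. Mcpt8, a basophil protease, differed by -0.04 ± 0.14 (SE, limma adjusted p = 0.959), and Ctsg, cathepsin G of neutrophils and some mast cells, by -0.16 ± 0.16 (SE, limma adjusted p = 0.834). Gzmb, the granzyme of cytotoxic lymphocytes at the far end of the cluster, was at 5.38 ± 0.43 (SD, n = 5) in stressed and 6.82 ± 1.30 (SD, n = 5) in control mice. Its difference of -1.43 ± 0.51 (SE, limma adjusted p = 0.546) came with overlap between the groups, and control mouse 5, at 5.82, was not the highest there. Without control mouse 1 the Gzmb difference was -1.86 ± 0.39 (SE, limma adjusted p = 0.0624), also with overlap. In that comparison Mcpt1 differed by -1.55 and Mcpt2 by -1.53.

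Likeness to Mcpt1 was measured as Pearson's r over the 10 arrays, as a description of 10 points that share the split into groups. Mcpt2 followed Mcpt1 most closely of all the members, at 0.96, and at 0.89 without control mouse 5. Cpa3 was at 0.60, but at -0.12 once each value was taken as a deviation from its group mean, where Mcpt2 remained at 0.90. Among 13020 other named genes above the floor, the 6 most like Mcpt1 were H2-DMb2, B3gnt5, Btla, Napsa, Chst4 and Aqp4, at 0.91 to 0.93. H2-DMb2 encodes a chain of the peptide-loading complex for MHC class II and Btla an inhibitory receptor of lymphocytes, and both were highest in control mouse 5, at 6.82 and 6.03. Without control mouse 5 their r was 0.79 and 0.80, while that of the water channel gene Aqp4 was 0.94. Aqp4 is also on the list of large intestine genes used here. The mean of that list was 5.27, 5.14, 5.00, 6.45 and 4.88 in stressed mice 1 to 5. In control mouse 1 it was 7.12, and in the other controls 5.42 to 5.61. The part of large intestine transcripts in the Mcpt1 values was not tested.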

How the data were processed

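RNA of the terminal ileum of 10 mice was purified with RNeasy, per the labels' protocols, and 100 ng of it was labelled from the 3′ end for Affymetrix arrays. The authors deposited 1 table of log2 values for 45101 probe sets, made with RMA per the submitters' processing notes (version not given in the sources used here). Base 2 was taken from the range, 1.22 to 14.4. RMA gives all arrays nearly the same distribution, so a change shared by most genes would not be seen, and levels of different probe sets cannot be compared. The number of arrays limits the precision.

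Groups came from the sample titles. The labels give each sample 1 mouse and a replicate number, and p-values measure the spread between these samples. Probe sets with 1 symbol (34945, of which 34741 were found in a RefSeq gene table) were reduced to the probe set with the highest mean per gene. All 18193 genes entered limma 3.58.1 in R 4.3.3 (lmFit, eBayes, Benjamini-Hochberg) with no filter on low values, so that low members were tested too, and a gene was called at an adjusted p under 0.05. Differences are stressed minus control on the log2 scale. The fit was tested on simulated data. The exact permutation test was checked there only for giving the same differences as the fit, not for its p. The named genes were all members, up to 3 genes per other list by smallest p, Kitl, Fcer1g and the 6 genes most like Mcpt1; Fabp6, Car1, Ms4a1, Tpsab1 and cluster neighbours were named after their values were seen. Members, lists and the setting without control mouse 1 were chosen with earlier results of these data known. Motifs were counted in RefSeq promoters (build GRCm38.p6), and promoters were aligned with Biopython 1.88. Alternatives were filters, limma with trend or array weights, the replicate number as a block, other uses of the probe sets, the exact test and leaving out each mouse.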

Additional observations from a re-analysis of the deposited data

Results flagged for a closer look

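Of 20 groups of 5 values, 10 members in 2 groups each, 2 held a value far from the rest by Dixon's test, and chance flags about 1 in 20 such groups. Hdc in stressed mouse 4 was at 3.55, and the next stressed mouse was at 4.08. Ms4a2 in stressed mouse 5 was at 3.61, and the next stressed mouse was at 3.32. Control mouse 5 did not pass that test for Mcpt1 or Mcpt2.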

How the results depend on the processing

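Mcpt1, Mcpt2, Cpa3 and Fcer1a kept a negative difference under every alternative that could be fitted to them. With all 10 arrays limma called no gene, and it called 21 with array weights, 2 with the mean of a gene's probe sets and 0 to 89 with 1 mouse left out, of which members numbered 0 to 1. Without control mouse 1 it called 89 genes, and 134 with trend, 45 over all probe sets, 0 by the exact permutation test, 0 to 119 with a further mouse left out, and 4 without stressed mouse 4 and control mouse 5, a setting chosen after the data had been seen. There 1 member was called, and 0 without the lowest 60 percent of probe sets, with the replicate block, over all probe sets, by the exact permutation test, without stressed mouse 4 and control mouse 5, or with any 1 further mouse left out (0 to 0). The limma adjusted p of Cpa3 ranged from 0.0329 to 0.119 over these alternatives, and the exact permutation test gave 0.196 after adjustment.

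Counts of members without overlap, in either direction, were 4 to 5 with 1 mouse left out. The added member was Ms4a2, higher in stressed mice, without stressed mouse 2, and Tpsb2, lower, without control mouse 2. Shares over all genes are not given for these settings, so the counts are no support. The count was 3 without the lowest 40 percent of probe sets (Mcpt1, Mcpt2 and Cpa3, which passed that floor only through their control values, so the count is no support). It was 0 without the lowest 60 percent of probe sets, since Kit alone then stayed in the fit. The filters at 40 and 60 percent left 5 and 9 members without a value. Differences near 0 changed sign. With all 10 arrays Cma1 was at -0.0040 and Kit at 0.11 with array weights, Ms4a2 at -0.040 with the mean of its probe sets, and with 1 mouse left out Cma1 ranged from -0.029 to 0.16, Kit from -0.16 to 0.25 and Hdc from -0.18 to 0.11. Without control mouse 1, Cma1 was at -0.010 with array weights and at -0.042 to 0.15 with a further mouse left out, and Ms4a2 at -0.058 with the mean of its probe sets. The causes were not tested.

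Deviations of mice with the same number correlated over genes at -0.27 to 0.21 for the 5 pairs, above 0.1 in 2 of them. So few correlations of whole arrays do not show a pairing by number and cannot exclude one. With the replicate block limma called 0 genes with all 10 arrays and 77 without control mouse 1, where Cpa3 was at -0.48 with a limma adjusted p of 0.116.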

Other observations

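Slc18a2, which is on the list of other mast cell genes, lay in the other direction from the proteases. It encodes the vesicular monoamine transporter that loads histamine into mast cell granules and also works in enterochromaffin cells. Slc18a2 was chosen after its values had been seen. It was at 4.73, 4.20, 4.32, 4.13 and 4.39 in stressed mice 1 to 5, against 5.13, 4.12, 3.22, 3.33 and 3.53 in control mice 1 to 5. Control mouse 1 was the highest array, and the other 4 controls lay below all 5 stressed mice. The difference was 0.49 ± 0.31 (SE, limma adjusted p = 0.765) with all 10 arrays and 0.80 (limma adjusted p = 0.0695) without control mouse 1.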
